A study of Mus musculus with 2 samples.

Results

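The Mir322 to Mir450b cluster is a group of 7 miRNA genes on the X chromosome: Mir322, Mir503, Mir351, Mir542, Mir450-2, Mir450-1 and Mir450b. They were found by name among 1973 listed miRNA genes, through Ensembl identifiers and the GENCODE mouse annotation. Levels were not used to find them, but the members were chosen with earlier results of these data known. Livers of mouse embryos at day 12.5 of development were used, from strain B6NCrl, with both sexes pooled and no treatment. The 2 libraries of short RNA form a single group, with 120 embryos pooled for replicate 1 and 88 for replicate 2. They are numbered as biological replicates, yet they carry 1 donor identifier, so the spread between them may be partly technical. No second tissue, age or condition is among these samples, and the values below are levels, their spread and differences between the 2 libraries.

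A miRNA is cut from a hairpin in a longer transcript, and either arm (5p or 3p) can become the mature strand. The mature miRNA guides Argonaute proteins to messenger RNAs, which it recognises mainly through its seed, bases 2 to 8 counted from its 5′ end. Genes of a cluster can be cut from 1 shared transcript, and miRNAs with the same seed can share targets. miR-322, the mouse counterpart of human miR-424, and miR-503 belong to the wider miR-15/16 group, known for repressing cyclins and other cell cycle genes.

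The mature sequences below show seeds that the cluster carries. The arms miR-322-3p, miR-503-3p, miR-351-3p and miR-542-5p have further seeds and are not printed. Each printed sequence is written 5′ to 3′ with the seed in capitals (RefSeq, GRCm38.p6). Relatives encoded elsewhere in the genome stand below the member they resemble. The miR-15/16-like sequences differ after the seed, and miR-503 differs within it.
miR-322-5p: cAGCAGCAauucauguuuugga
miR-503-5p: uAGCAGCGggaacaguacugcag
miR-15a-5p: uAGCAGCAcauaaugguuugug
miR-16-5p: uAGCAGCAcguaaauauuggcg
The miR-125-like sequences share their first 8 bases.
miR-351-5p: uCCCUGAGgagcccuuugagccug
miR-125a-5p: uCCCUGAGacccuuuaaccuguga
miR-125b-5p: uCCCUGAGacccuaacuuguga
The remaining members carry other seeds.
miR-542-3p: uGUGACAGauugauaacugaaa
miR-450a-5p: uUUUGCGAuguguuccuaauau
miR-450b-5p: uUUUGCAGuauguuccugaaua
miR-450b-3p: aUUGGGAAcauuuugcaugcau
miR-450a-1-3p: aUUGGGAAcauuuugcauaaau
miR-450a-2-3p: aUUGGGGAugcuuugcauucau

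Pairs of mature sequences were compared position by position from the 5′ end, without gaps. miR-322-5p and miR-503-5p had the same base at 11 of 22 positions. The 1 difference within bases 2 to 8 was A8G (position counted from the 5′ end, miR-322 first), so the pair shared bases 2 to 7 only. miR-322-5p had the same base as miR-15a-5p at 15 of 22 positions and as miR-16-5p at 12 of 22. miR-351-5p and miR-125a-5p had the same base at 10 of 24 positions, with G9A as the first difference. After the seed this pair also has like stretches at shifted positions, which this count leaves out. The 5p arms of miR-450a and miR-450b differed at G7A and A8G within the seed and had the same base at 15 of 22 positions. Their 3p arms were closer: miR-450a-1-3p and miR-450b-3p had the same base at 20 of 22 positions and one seed between them, whereas miR-450a-2-3p had another.

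Sequencing gave 11057424 reads for replicate 1 and 11013976 for replicate 2. Sense counts on miRNA genes came to 3447858 and 3534816 of these. Levels are given as counts per 1000000 of those sense counts (CPM), as mean ± SD with n = 2. In short RNA libraries a read spans a mature miRNA, so counts were not divided by hairpin length. The limit for a gene at 0, set at 3 counts, was 0.870 and 0.849 CPM, and intervals and limits cover counting error only. Counts are of reads, and no correction by molecular identifiers was made here. Of the markers of the labelled tissue and its cells, the hepatocyte miRNA Mir122 was at 60913 and 47128 CPM and the endothelial Mir126a at 68816 and 68165 CPM (replicates 1 and 2). The 3 erythroid miRNAs summed to 16926 and 37430 CPM, the myeloid Mir223 to 6929 and 5584, the 4 mesenchymal miRNAs to 23535 and 25434, and the 2 skeletal muscle miRNAs to 131 and 294, with no listed marker gene at 0.

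The 7 genes lie on the minus strand in 6353 bases, from 53047997 to 53054349 of the X chromosome (mm10). In the direction of transcription Mir322 (ENSMUSG00000065418.1, chrX:53054255-53054349) comes first. Mir503 (ENSMUSG00000076122.1, chrX:53053984-53054054) follows after a gap of 200 bases and Mir351 (ENSMUSG00000065503.1, chrX:53053255-53053353) after a further 630. A gap of 3767 bases precedes Mir542 (ENSMUSG00000076140.1, chrX:53049403-53049487), and one of 1035 bases precedes Mir450-2 (ENSMUSG00000076399.1, chrX:53048299-53048367). Mir450-1 (ENSMUSG00000065486.1, chrX:53048154-53048244) is 54 bases further on and Mir450b (ENSMUSG00000076050.1, chrX:53047997-53048078) another 75. In GENCODE each is the single exon of its own miRNA gene. In RefSeq the span of a long noncoding RNA gene, C430049B03Rik (chrX:53053112-53057190, minus strand), takes in Mir322, Mir503 and Mir351, and that table does not say whether they are exonic or intronic. In GENCODE the gene of that name lies upstream of Mir322 and overlaps no member. The hairpins of Mir322, Mir503, Mir351 and Mir542 had a GC content between 50.5% and 54.9%, and those of the 3 Mir450 genes between 30.5% and 36.2%.

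The cluster held 3.75% of the sense counts in replicate 1 and 3.84% in replicate 2 (3.80% ± 0.0611, SD, n = 2), or 37520 and 38384 CPM. The 2 libraries were close, and Mir322 accounted for most of this sum. Reads aligned to several places are not in the sense counts, so the share of the cluster may be too high. All 7 members were detected, meaning at least 10 CPM in both libraries, beside 15.3% of all listed genes (301 of 1973). The cluster made up 52.0% and 55.7% of the sense counts on the X chromosome, where 33 of 120 listed genes were detected. Bulk tissue gives 1 value per library, so fewer cells of a type and less RNA per cell cannot be told apart.

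Mir322, the first hairpin of the cluster, was counted 104738 times in replicate 1 and 110799 times in replicate 2. Its level was 30378 and 31345 CPM (30861 ± 684, SD, n = 2), the highest on the X chromosome. It was rank 6 of all listed genes by mean CPM, the measure used for ranks here, and rank 7 in each library. Reads aligned to several places are set aside, so genes that share a run of 20 bases with another may be counted too low. There were 929 such genes among the 1973 listed. This limits all ranks here, and Mir322, which shares no such run, may be ranked too high. By the mean it stood between Mir26b (39951 ± 2548 CPM), which follows Mir335 (50413 ± 3779), and Mirlet7g (29605 ± 2140), which precedes Mir21a (25499 ± 893). Mir322 and Mirlet7g changed places between the libraries, since Mirlet7g was at 31118 CPM in replicate 1 and 28091 in replicate 2. The erythroid Mir451a was below Mir322 in replicate 1 (12422 CPM) and above it in replicate 2 (32496 CPM). Mir26b and Mir21a did not overlap with Mir322. Within the cluster, Mir322 took 81.0% of the counts in replicate 1 and 81.7% in replicate 2, and the other 6 genes together were at 7091 ± 73.4 CPM (SD, n = 2).

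Mir503, the other miR-15/16-like member and next in the cluster, is known to act on cyclin D1. It was counted 3360 and 3783 times (replicates 1 and 2), or 975 and 1070 CPM (1022 ± 67.7, SD, n = 2), rank 102. Mir322 had 31.2 times its counts in replicate 1 and 29.3 in replicate 2, although the 2 hairpins are 200 bases apart. Mir503 made up 2.69% ± 0.135 (SD, n = 2) of the cluster.

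Mir351, the miR-125-like member, was second in level though it lies after Mir503. It was counted 16325 and 15893 times, or 4735 and 4496 CPM (4615 ± 169, SD, n = 2), rank 49 of all listed genes and rank 4 on the X chromosome. It made up 12.2% ± 0.640 (SD, n = 2) of the cluster. Mir322 had 6.42 times its counts in replicate 1 and 6.97 in replicate 2.

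Mir542, whose 3p arm is known to target the survivin messenger RNA, was counted 3336 and 3412 times. It was at 968 and 965 CPM (966 ± 1.63, SD, n = 2), rank 107. Its level lay just below that of Mir503, from which it is separated by Mir351. In replicate 1 only 24 counts separated the pair and their 95% Poisson intervals overlapped (942 to 1008 CPM for Mir503 and 935 to 1001 CPM for Mir542). In replicate 2 the gap was 371 counts, and the ratio of the means was 1.06.

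The 3 Mir450 genes, which lie close together at the end of the cluster, differed widely in counts. Mir450b was counted 1454 and 1625 times, or 422 and 460 CPM (441 ± 26.9, SD, n = 2), rank 133. Mir450-1 was counted 115 and 125 times, or 33.4 and 35.4 CPM (34.4 ± 1.42, SD, n = 2), rank 246. Mir450-2 was counted 37 and 43 times, or 10.7 and 12.2 CPM (11.4 ± 1.01, SD, n = 2), rank 301, close to the detection threshold of 10 CPM. Its 95% Poisson intervals, 7.56 to 14.8 CPM and 8.80 to 16.4 CPM, reached below the detection threshold in both libraries. Mir450b had 9.57 times the counts of the other two together in replicate 1 and 9.67 in replicate 2.

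The low counts of Mir450-1 and Mir450-2 are uncertain because their hairpins share a run of 25 bases, in capitals here, which holds the whole of miR-450a-5p.
Mir450-1: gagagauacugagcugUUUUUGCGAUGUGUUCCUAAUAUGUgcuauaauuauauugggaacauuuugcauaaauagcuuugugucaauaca
Mir450-2: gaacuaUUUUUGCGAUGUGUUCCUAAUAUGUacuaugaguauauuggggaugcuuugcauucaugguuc
A read of miR-450a-5p is the same from either gene. The deposited tables set aside reads aligned to several places, 28.8% and 31.1% of all reads, and do not say which genes these came from. The counts of Mir450-1 and Mir450-2 are therefore not a measure of miR-450a-5p. Mir450b shared 19 bases with Mir450-1, in the 3p arm, which is just short of the 20 bases at which a gene was called uncertain. None of the other members shared 20 bases with another miRNA gene.

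**Figure D1:**
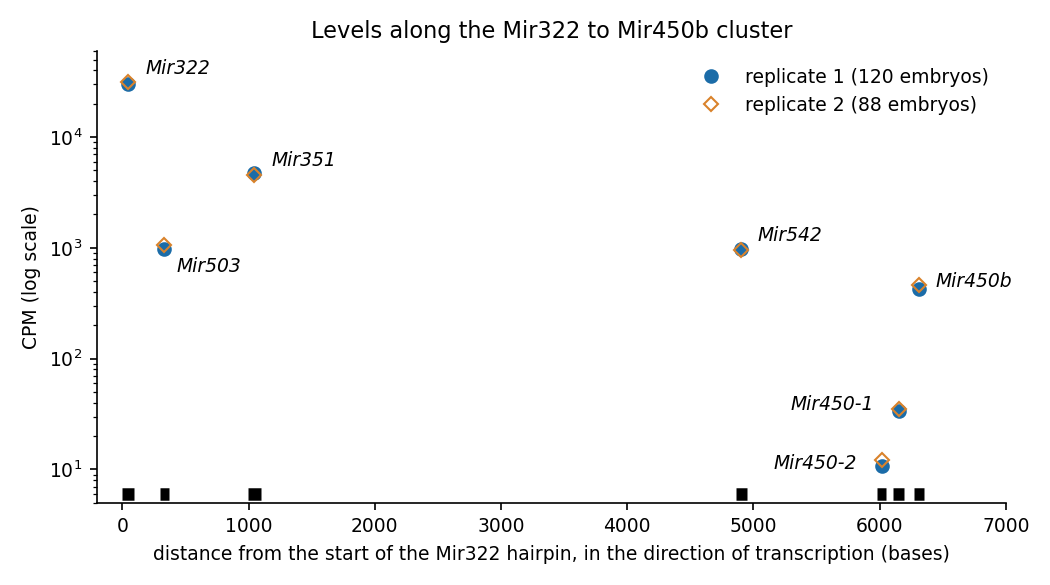
CPM of each member on a log axis against distance from the start of the Mir322 hairpin in bases, with filled circles for replicate 1, open diamonds for replicate 2 and black blocks for the hairpins. Mir322 is highest near 30861 CPM, Mir351 second, Mir503 and Mir542 nearly level on either side of it, and Mir450-2 lowest at 11.4 CPM.

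By mean CPM the order was Mir322, Mir351, Mir503, Mir542, Mir450b, Mir450-1 and Mir450-2. For all 6 neighbouring pairs in that order the ranges over the 2 libraries did not overlap, but Mir503 and Mir542 were within counting error of each other in replicate 1. Along the cluster the level did not fall steadily, since Mir503 was below Mir351. Both Mir450-2 and Mir450-1 were also below Mir450b, but their counts are uncertain because reads aligned to both genes are set aside. The first 3 hairpins held the 3 highest means. Opposite-strand counts were 0 in both libraries for every member except Mir542, with 1 count in replicate 1.

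Among genes that share the seed of miR-322-5p, most counts came from this cluster. RefSeq mature sequences gave 10 such genes, of which 6 were detected and Mir195b, Mir6353, Mir6419 and Mir6342 were at 0. The detected and undetected genes summed to 49626 ± 1117 CPM (SD, n = 2), and Mir322 held 62.2% in each library. Mir15a, which with Mir16-1 forms a cluster known for repressing Bcl2, was at 9133 and 9114 CPM (9124 ± 13.2, SD, n = 2). Mir16-1 was at 4855 and 5648 CPM and Mir16-2 at 899 and 1143, and these are uncertain because the 2 genes encode one mature miR-16-5p. Mir15b was at 3324 and 2897 CPM (3110 ± 302, SD, n = 2), and Mir195a at 259 ± 15.3 CPM. By these counts Mir322 alone was above the sum of the 7 other listed miR-15/16 genes (18459 and 19072 CPM). Reads of miR-16-5p aligned to both Mir16 genes are set aside in the deposited counts. That sum may therefore be too low and the share of Mir322 too high. Mir503 lay between Mir15b and Mir195a, close to Mir16-2.

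Without the genes that share a run of 20 bases, the share of Mir322 in its seed group was 71.2% ± 0.948 (SD, n = 2). Leaving out Mir16-1 and Mir16-2 can only raise this share, so it does not show the effect of reads that were set aside. With a seed of bases 2 to 7, chosen after the data were seen, Mir503 joined the group and the 2 members together held 63.0%. Of the 9 genes of the miR-15/16 list, Mir497 and Mir497a are not analysed here. Mir497b, annotated on the opposite strand of that locus, had 1 and 3 sense counts and 1248 and 1229 opposite-strand counts (355 ± 10.1 CPM, SD, n = 2), and with these included the share of Mir322 was 61.7%.

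In counts per gene, the miR-125-like group was smaller and led by Mir351 in both libraries. Of 6 genes with the seed of miR-351-5p, 4 were detected, and Mir6394 and Mir6367 were at 0. The group summed to 7263 ± 490 CPM (SD, n = 2), and Mir351 held 62.2% in replicate 1 and 65.0% in replicate 2. Mir125a, a miRNA known from blood stem cells, was at 2317 and 1815 CPM (2066 ± 355, SD, n = 2). Mir125b-1 was at 370 ± 21.8 CPM and Mir125b-2 at 212 ± 12.3, and these 2 encode one mature miR-125b-5p. Reads of miR-125b-5p aligned to both genes are set aside, so their levels and the group sum may be too low. The share of Mir351 may then be too high, and its level cannot be set against that of miR-125b-5p. No other detected gene with a matched RefSeq sequence shared a seed with an arm of Mir542, and among the Mir450 arms the detected seed matches lay within the cluster. A gene count does not separate the arms of a hairpin, so every group sum includes both arms of its genes.

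**Figure D2:**
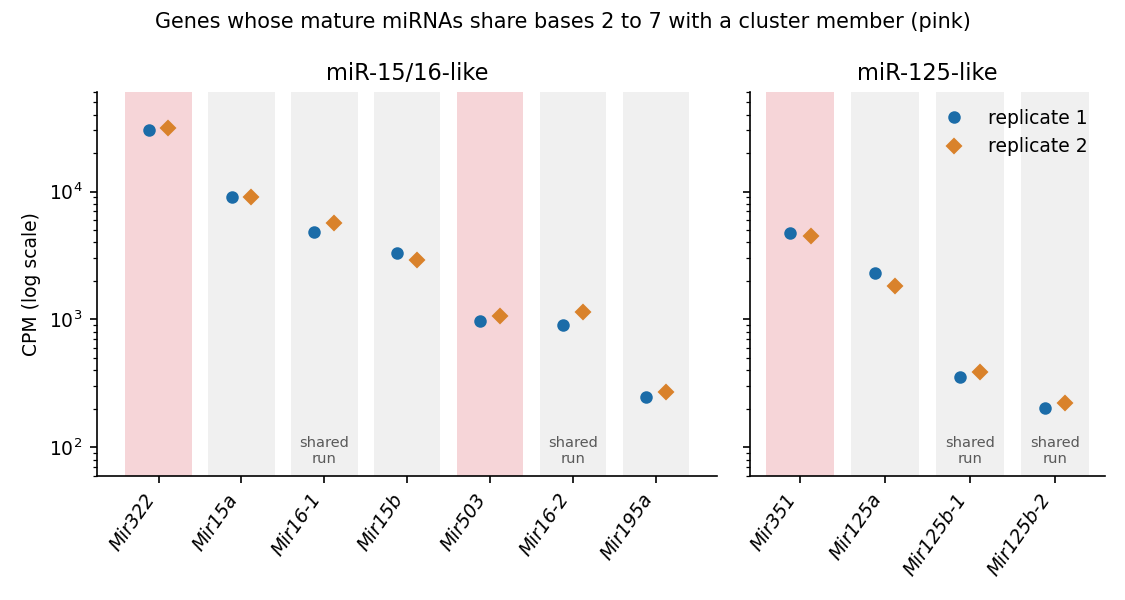
CPM on a log axis for each detected gene whose mature sequence shares bases 2 to 7 with miR-322-5p (left) or miR-351-5p (right), with circles for replicate 1 and diamonds for replicate 2. Cluster members have pink columns and genes marked "shared run" have uncertain counts; Mir322 and Mir351 stand above the other genes of their groups in both libraries.

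The 2 libraries were next compared gene by gene. A two-sided exact binomial test on library sizes scaled by TMM was used for the 464 genes with at least 10 counts over both. It allows for counting error only and compares 2 libraries, not conditions. A log2 ratio is replicate 2 over replicate 1. Of all tested genes 40.3% were called at an adjusted p of 0.05 (187 of 464), beside 3 of the 7 members. In replicate 2, 22% of all tested genes were called higher and 18.3% lower, beside 3 and 0 members.

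The members called were Mir322, Mir503 and Mir450b, and their differences were small. For Mir322 the log2 ratio was 0.10 (95% exact interval 0.09 to 0.11, adjusted p = 7.73e-57 by the exact binomial test). For Mir503 it was 0.19 (0.12 to 0.26, exact binomial test, adjusted p = 1.36e-07). Mir450b gave 0.18 (0.08 to 0.28, exact binomial test, adjusted p = 0.00182). The remaining members were not called: Mir351 at -0.02 (-0.05 to 0.01), Mir542 at 0.05 (-0.02 to 0.12), Mir450-1 at 0.14 (-0.24 to 0.52) and Mir450-2 at 0.23 (-0.43 to 0.91). The depth behind Mir450-1 and Mir450-2 leaves wide intervals, while the interval of Mir322, the deepest member, is narrow.

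The sizes depended on the scaling. With total sense counts in place of TMM the log2 ratio was 0.05 for Mir322, outside the interval above, 0.14 for Mir503 and 0.12 for Mir450b. With DESeq2 size factors it was 0.08, 0.17 and 0.16. All 3 were called under both, beside 178 (total sense counts) and 175 (DESeq2) of all 464 tested genes. With total sense counts or DESeq2 size factors, Mir351 was called lower as well, at -0.07 (adjusted p = 1.33e-05, exact binomial test) and -0.04 (adjusted p = 0.0433, exact binomial test). The log2 ratio of Mir542 turned to -0.0034 with total counts. edgeR's exact test, which adds a spread between libraries to the counting error, called no member. That spread was assumed or estimated from the same 2 libraries, so this count is no measure of how steady the members were. At an assumed coefficient of variation of 0.1, 2.59% of all genes were called and 1.08% at the coefficient estimated from these libraries (0.162). At an unadjusted p of 0.05, edgeR's exact test called 47 and 19 genes at these settings and no member.

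The median absolute log2 ratio was 0.14 over the 7 members and 0.26 over all 464 tested genes, and the median coefficient of variation of CPM was 4.13% and 12.3%. These medians mix genes of different depth. Of the 5 tested miR-15/16 genes outside the cluster, Mir15a (0.05), Mir16-1 (0.27), Mir16-2 (0.40) and Mir195a (0.18, the median) were called higher in replicate 2 and Mir15b (-0.14) lower, by the exact binomial test. Of the miR-125 genes, Mir125b-1 (0.17) was called higher, Mir125a (-0.30) lower, and Mir125b-2 (0.17, the median) was not called, beside a median of 0.02 over all tested genes. The marker sums given above moved between the same libraries. The hepatocyte and myeloid markers were lower in replicate 2, and the erythroid, mesenchymal and skeletal muscle sums were higher. The erythroid sum was carried by Mir451a (log2 ratio 1.44), while Mir144 was at 0.35 and Mir486 at -0.38. In skeletal muscle, Mir206 was at 1.22 and Mir133b, with 8 and 19 counts, at 1.22. The myeloid Mir223 was at -0.26. The part of these markers in the differences above was not tested.

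**Figure D3:**
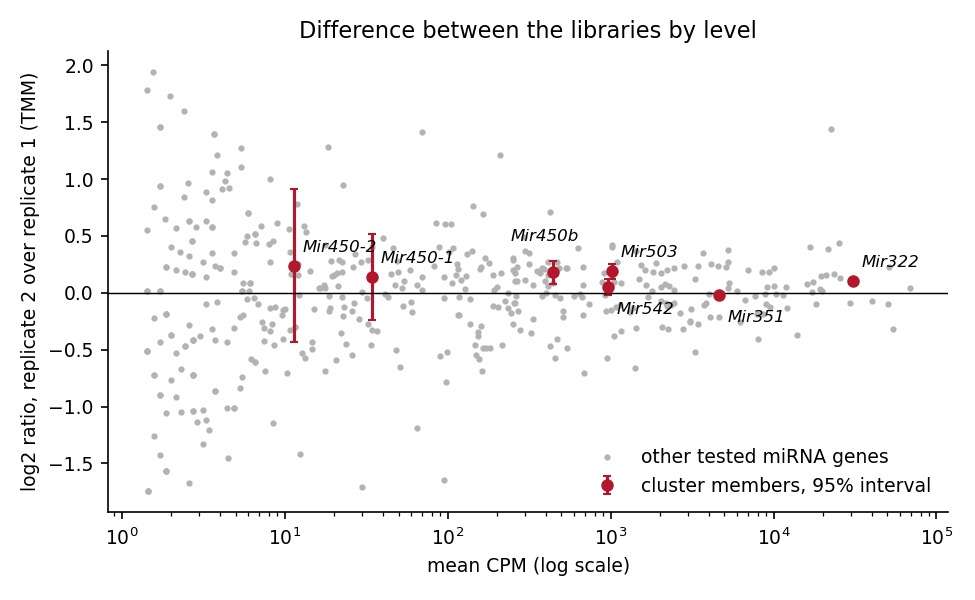
Log2 ratio of replicate 2 over replicate 1 against mean CPM on a log axis, with grey points for other tested genes and red points with 95% intervals for the 7 members. The members lie between -0.02 and 0.23, and the intervals widen for Mir450-1 and Mir450-2.

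Ratios of 2 members within a library do not depend on scaling, so all 21 pairs were compared by a two-sided Fisher exact test. Of these, 5 differed between the libraries at an adjusted p of 0.05 (6 unadjusted), and 3 of the 5 involved Mir351. Mir322 over Mir351 went from 6.42 in replicate 1 to 6.97 in replicate 2 (adjusted p = 7.72e-11, Fisher exact test). Mir503 over Mir351 went from 0.206 to 0.238 (adjusted p = 3.06e-07, Fisher exact test). Mir351 over Mir450b went from 11.2 to 9.78 (adjusted p = 0.0019, Fisher exact test). Mir351 was thus lower in replicate 2 relative to 3 other members. Mir503 over Mir542 rose from 1.01 to 1.11 (adjusted p = 0.0252, Fisher exact test) and Mir322 over Mir503 fell from 31.2 to 29.3 (adjusted p = 0.0407, Fisher exact test). Without Mir450-1 and Mir450-2 the same 5 were among 10 pairs. These tests cover counting error only. Pairs of other genes were not compared, so there is no background share for the 5 called pairs. Among single genes, 40.3% of all tested were called by the exact binomial test. The called pairs are therefore not read as a trait of the cluster or of Mir351.

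Beside other miRNA clusters the Mir322 to Mir450b cluster was uneven. Same-strand genes within 10 kb of each other were chained, and 14 chains had at least 3 detected genes. By the sum of their counts this cluster was rank 4, after the chains led by Mir411 (11.8% of sense counts), Mir17 (9.06%) and Mir431 (5.44%), and above the other X chromosome chains led by Mir532 (0.382%) and Mir106a (0.0876%). The share of its top gene, 81.3%, was rank 2, below the chain led by Mir23a (95.7%) and above the median of 50.0%. All 3 detected genes of the Mir23a chain share a run of 20 bases with another gene, and other chains also hold such genes. Their sums and shares are uncertain, and neither the rank by sum nor the rank by share was computed without those genes. Its highest detected gene had 2696 times the level of its lowest, the widest of the 14, but that ratio rests on Mir450-2. Without genes that share a run of 20 bases the ratio was 70.0, from Mir322 to Mir450b, which was rank 5 of 12 chains with a median of 19.6. No test was made of these ranks.

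**Figure D4:**
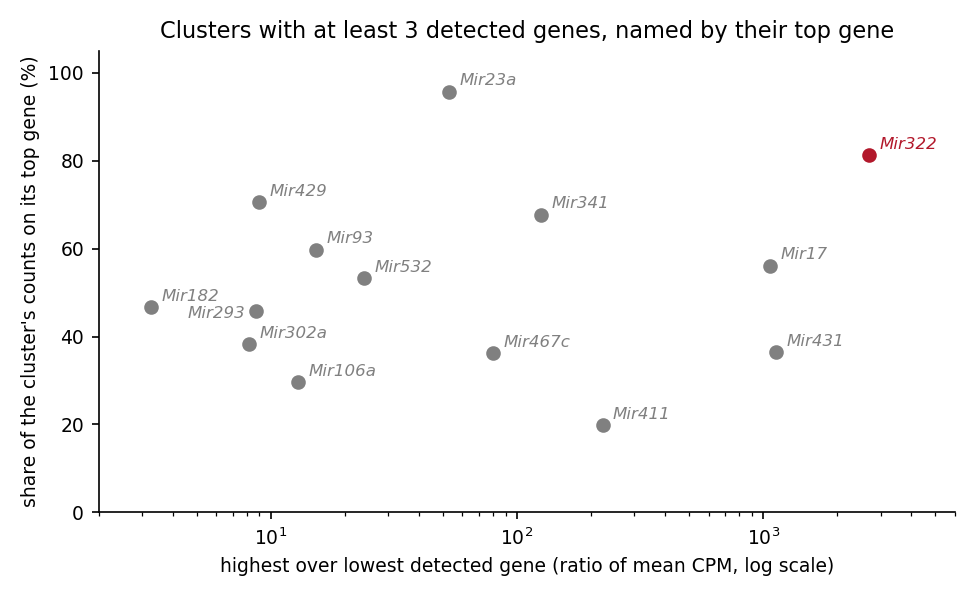
Share of each chain's counts on its top gene (%) against the ratio of its highest to its lowest detected gene on a log axis, with 1 point for each of 14 chains named by its top gene. The chain led by Mir322, in red, has a share of 81.3% and a ratio of 2696, which includes the uncertain Mir450-2.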

How the data were processed

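The authors deposited 1 table per library of raw read counts over 1973 miRNA genes, with sense and opposite-strand columns and lines for reads on no gene. Per the files' own lists, the build was mm10 and the annotation GENCODE M4. The aligner and the counter, not given in the sources used here, cannot be named, and the labels state no extraction protocol. Unmapped reads (29.4% and 25.8%), reads aligned to several places and other lines of no gene were left out of library sizes.

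Sense counts were scaled to CPM. Symbols and coordinates came from GENCODE M21 (1894 identifiers found), and mature sequences from RefSeq (GRCm38.p6), matched for all 7 members and 916 listed genes. Library differences used exact binomial and Fisher exact tests (SciPy 1.17.1) with Benjamini-Hochberg adjustment. Log2 ratios had 0.5 counts added and Clopper-Pearson intervals. TMM and the negative binomial exact test came from edgeR 4.0.16 and size factors from DESeq2 1.42.0. Only the exact binomial test was run on simulated data. The simulated counts held counting error and no further spread between libraries, so they do not check the other steps. The binomial and Fisher p-values measure counting error only. Those of edgeR add a spread that was assumed or estimated from the same 2 libraries. How evenly library preparation captured different miRNAs was not tested.

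Genes named were all members, the miR-15/16 and miR-125 lists, detected genes sharing a seed with a member, the 2 genes on either side of Mir322 by level, and cell type markers. Chain leaders, undetected seed relatives and C430049B03Rik were named after values were seen. The members and lists were chosen with earlier results of these data known.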

Additional observations from a re-analysis of the deposited data

How the results depend on the processing

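The share of the cluster in all counts, 3.80%, was 3.43% with both strands counted, 1.20% with all reads as the denominator and 4.24% without genes sharing a run of 20 bases, where the denominator itself differs. The levels of all 7 members were lower by more than 1 SD with both strands counted and with all reads as the denominator, both of which enlarge the denominator. The number of members called, 3 beside 187 of all 464 tested genes, was 4 with total counts, beside 178 of 464. With DESeq2 size factors it was 4, beside 175 of 464. It was 3 without the filter, beside 175 of 754, and 3 with both strands, beside 196 of 473. edgeR's exact test called 0 members, beside 12 of 464 genes at the assumed coefficient of variation and 5 at the estimated one. In edgeR the members' lowest adjusted p was 0.832 at the assumed coefficient and 1 at the estimated one, with 0 members at an unadjusted p of 0.05. The log2 ratio of Mir322 was 0.05 with total counts in place of 0.10. That of Mir542 turned from 0.05 to -0.0034 with total counts, and the cause was not tested. The share of Mir322 in its seed group, 62.2%, was 71.2% without genes sharing a run. Under alternatives chosen after the data were seen, it was 61.7% with the opposite strand of Mir497b, and for bases 2 to 7 the share of Mir322 and Mir503 together was 63.0%. The share of Mir351 in its group, 63.6%, was 69.2% without genes sharing a run. The shares of Mir322 and Mir351 can only rise when those genes are left out, so neither is a check on reads set aside. All 7 members were also detected at 1 CPM, and 5 at 100 CPM. The share of all listed genes at those thresholds is not given here, so these counts stand without a background. With 1 library left out, the differences between libraries cannot be computed. No paired analysis was possible because there is 1 group. Depth limits Mir450-1 and Mir450-2, whose intervals are wide.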
